A study of Homo sapiens with 8 samples.

Results

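The Hippo pathway, its transcriptional output and the serum response genes were followed in HAP1 cells that carry a knockout of BCDIN3D, an RNA methyltransferase that acts on histidine tRNA. The set held 42 genes out of 57996 gene symbols counted. They were taken by symbol from the total RNA counts in 3 groups: 15 genes of the Hippo core, 7 YAP targets and 20 serum response genes. CYR61 and CTGF, now CCN1 and CCN2, are given under the older names that the counts use. HAP1 is a near-haploid human line derived from a chronic myelogenous leukaemia. The knockout group (KO) was clone 11 of HAP1, labelled BCDIN3D KO, and the comparison group was HAP1 labelled WT. Both grew for 48 h in IMDM with 10% serum and were not starved or stimulated, as far as the labels say. There were 2 libraries per group, and in each group replicate 1 is dated 6 May in the labels and replicate 2 is dated 9 May. The KO group was 1 clone, so traits of that clone and the loss of BCDIN3D cannot be told apart.

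The Hippo pathway is a kinase chain in which STK3 and STK4 activate LATS1 and LATS2, and the LATS kinases phosphorylate YAP1 and its paralog WWTR1 (TAZ), which are then kept out of the nucleus. Unphosphorylated YAP1 and TAZ bind the TEAD factors on DNA and drive genes such as CTGF and CYR61, often beside AP-1, the dimers of FOS and JUN proteins. Immediate early genes such as FOS and EGR1 are switched on within minutes of growth factor or serum addition, through the serum response factor SRF and the ERK kinases, and are low in cells left undisturbed.

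Promoter windows are printed for the members that rose and had a window in the RefSeq table, and for CTGF and EGR1, which are textbook targets of TEAD factors and of SRF. Each runs from 250 bases before to 50 bases after the RefSeq start site (GRCh38.p14) and is written along the gene's own strand. Capitals mark matches to the TEAD motif GGAATG in CTGF and THBS1 and to the CArG box, the binding motif of SRF, in EGR1. The windows were AMOT at chrX:112840782-112841081 (minus strand), AMOTL2 at chr3:134375368-134375667 (minus), RBMS3 at chr3:29280821-29281120 (plus), THBS1 at chr15:39580829-39581128 (plus), CTGF at chr6:131951323-131951622 (minus) and EGR1 at chr5:138465229-138465528 (plus).
AMOT: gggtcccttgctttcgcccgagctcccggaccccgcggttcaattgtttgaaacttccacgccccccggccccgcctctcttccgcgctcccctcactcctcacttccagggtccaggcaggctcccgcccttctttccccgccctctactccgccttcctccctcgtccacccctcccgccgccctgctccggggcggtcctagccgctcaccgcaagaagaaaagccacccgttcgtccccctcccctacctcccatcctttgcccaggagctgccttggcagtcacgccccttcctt
AMOTL2: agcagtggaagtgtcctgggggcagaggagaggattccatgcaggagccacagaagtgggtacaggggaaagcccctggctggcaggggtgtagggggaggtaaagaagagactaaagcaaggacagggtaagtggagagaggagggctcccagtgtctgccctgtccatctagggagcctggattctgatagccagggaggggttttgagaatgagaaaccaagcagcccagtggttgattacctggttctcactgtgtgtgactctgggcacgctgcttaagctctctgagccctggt
RBMS3: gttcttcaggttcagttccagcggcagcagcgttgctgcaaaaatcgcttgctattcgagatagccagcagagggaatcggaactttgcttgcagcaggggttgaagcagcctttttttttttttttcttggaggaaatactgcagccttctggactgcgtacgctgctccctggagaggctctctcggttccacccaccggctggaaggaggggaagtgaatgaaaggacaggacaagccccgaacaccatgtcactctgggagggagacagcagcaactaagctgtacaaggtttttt
THBS1: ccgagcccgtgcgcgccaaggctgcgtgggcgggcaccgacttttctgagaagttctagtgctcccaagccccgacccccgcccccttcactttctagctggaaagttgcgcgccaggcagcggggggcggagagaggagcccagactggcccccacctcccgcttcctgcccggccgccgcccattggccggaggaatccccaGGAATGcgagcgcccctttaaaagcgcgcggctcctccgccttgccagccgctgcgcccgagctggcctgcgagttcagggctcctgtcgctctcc
CTGF: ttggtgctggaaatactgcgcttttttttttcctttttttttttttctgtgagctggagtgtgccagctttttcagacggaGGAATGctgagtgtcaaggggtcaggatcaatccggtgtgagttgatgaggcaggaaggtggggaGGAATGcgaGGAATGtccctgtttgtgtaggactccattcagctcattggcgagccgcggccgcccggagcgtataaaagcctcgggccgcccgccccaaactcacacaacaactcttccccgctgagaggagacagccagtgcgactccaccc
EGR1: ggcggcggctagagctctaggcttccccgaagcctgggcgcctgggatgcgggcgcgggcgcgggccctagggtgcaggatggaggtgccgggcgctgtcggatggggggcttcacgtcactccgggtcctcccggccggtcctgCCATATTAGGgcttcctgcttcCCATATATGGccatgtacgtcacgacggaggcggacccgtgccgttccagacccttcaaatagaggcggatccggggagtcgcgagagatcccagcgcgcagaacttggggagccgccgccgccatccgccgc

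Of the 42 members 31 had a promoter window in the RefSeq table. The motifs searched on both strands were GGAATG for TEAD, TGANTCA for AP-1, TGACGTCA for the cyclic AMP response element (CRE), and the CArG box. In the member windows 0 matches of different motifs overlapped. The TEAD motif was present in 3 of the 5 YAP target windows (60%), in 2 of the 12 Hippo core windows (16.7%) and in 1 of the 14 serum response windows (7.14%), against 14% of all 27305 promoters of that length. CTGF held 3 copies, at 169, 104 and 95 bases before the start. ANKRD1 held 2 copies and THBS1 held 1. The group was chosen as targets of YAP1, which acts through TEAD factors, so its share in 5 windows is a description of that choice. The serum response window with the TEAD motif was that of EGR2, which held 2 copies, and the Hippo core windows were those of YAP1 and LATS2. The CArG box was found in 2 of the 14 serum response windows, EGR1 and SRF itself, against 1.29% of all promoters. The CRE was found in JUND and DUSP1, 2 of the 31 member windows (6.45%), against 1.98% of all promoters. The AP-1 motif was found in ANKRD1 and FOSL2, also 2 of 31 (6.45%), which is below the 7.76% of all promoters. The windows of AMOT, AMOTL2 and RBMS3 held 0 of the 4 motifs. A match describes letters in a window and shows no binding.

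**Figure D1:**
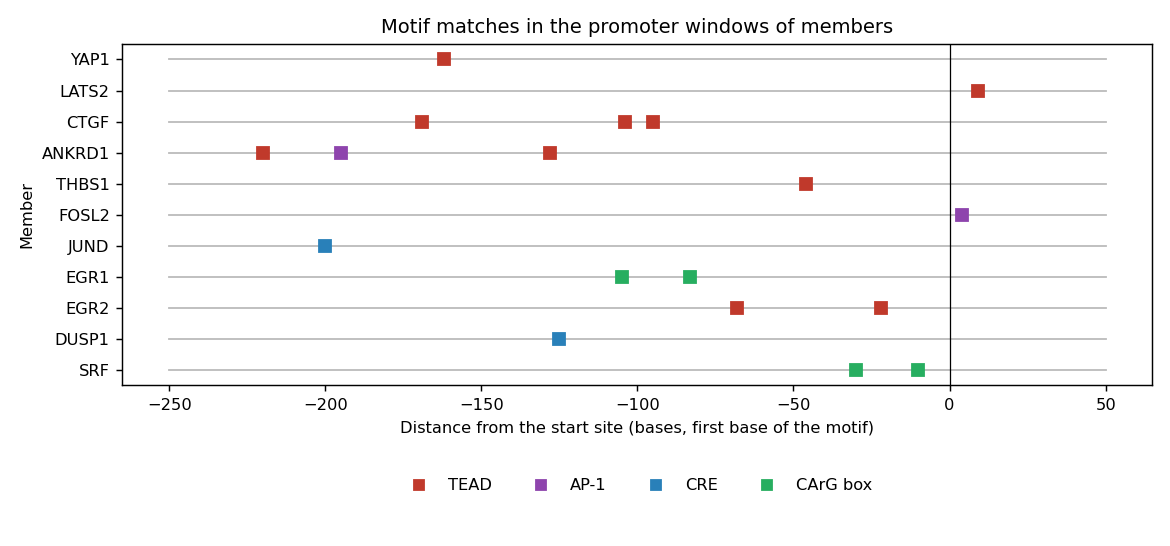
Matches to 4 motifs in the promoter windows of the 11 members that held any; the horizontal axis is the distance in bases from the RefSeq start site to the first base of the motif, and each row is a member. CTGF carries 3 TEAD matches between 169 and 95 bases before the start, and EGR1 and SRF carry 2 CArG boxes each.

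Sequencing gave 20065041 to 24415272 counts per library. BCDIN3D itself had 1.56 and 2.71 CPM in KO and 7.40 and 4.90 CPM in WT (log2 fold change -1.52 ± 0.24, SE; adjusted p = 2.06e-05 in edgeR's quasi-likelihood test, as for all adjusted p-values without another name). CPM are counts scaled to a common library total by the TMM method, and they compare 1 gene between libraries; they are not corrected for gene length, so levels of different genes are not compared. Of 8 blood cell markers, PTPRC and CD34 among them, 0 had enough counts to be tested, and their summed level was 0.189 and 0.101 CPM in the KO libraries and 0.529 and 0.810 CPM in the WT libraries. The 7 fibroblast markers summed to 7.90 and 8.70 CPM in KO and 8.65 and 10.5 CPM in WT, nearly all of it from COL1A1, with DCN and LUM at 0 counts in all 4 libraries. Of 6 epithelial markers 3 had enough counts to be tested (EPCAM, KRT8 and KRT18). All 3 were called lower in KO, as were 3.5% of all genes tested. EPCAM had only 4 and 3 counts in KO and 18 and 21 counts in WT. The 6 markers summed to 58.2 and 50.1 CPM in KO and 77.9 and 69.3 CPM in WT, and CDH1 was at or near 0 throughout. The KRT8 call held without any one library, and those of EPCAM and KRT18 did not (largest adjusted p 0.147 and 0.639). DESeq2 kept KRT8 (adjusted p = 1.40e-05) and lost EPCAM (0.344) and KRT18 (0.340). The part of these markers in the results below was not tested. In bulk RNA, fewer cells that express a gene and less of its RNA per cell cannot be told apart.

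Across the 3 groups 6 members were higher in KO and 0 lower at an adjusted p under 0.05 in the edgeR fit, out of 37 members with enough counts to be tested. These were AMOT and AMOTL2 of the Hippo core, the YAP targets THBS1, RBMS3 and CYR61, and the ERK phosphatase gene DUSP4. The members called made up 16.2% of those tested, against 6.56% of all 16233 genes tested, of which 3.06% were higher and 3.5% lower. Without adjustment, 9 members were higher and 3 lower at p under 0.05. The share of all genes at that unadjusted threshold was not taken, here or for the groups and lists below. With the date as a block 7 members were higher and 1 lower, against 4.72% and 4.83% of all genes (9.55% in either direction). AMOT and THBS1 were the 2 members called by DESeq2, both higher, where 2.84% of all genes were called, 1.3% higher and 1.54% lower. The median log2 fold change of the 37 members was 0.04, against 0.00 over all genes. Of the 31 tested members that were not called, 28 had a 95% interval that lay within 2-fold either way, and those of EGR1, CTGF and DUSP5 reached further.

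**Figure D2:**
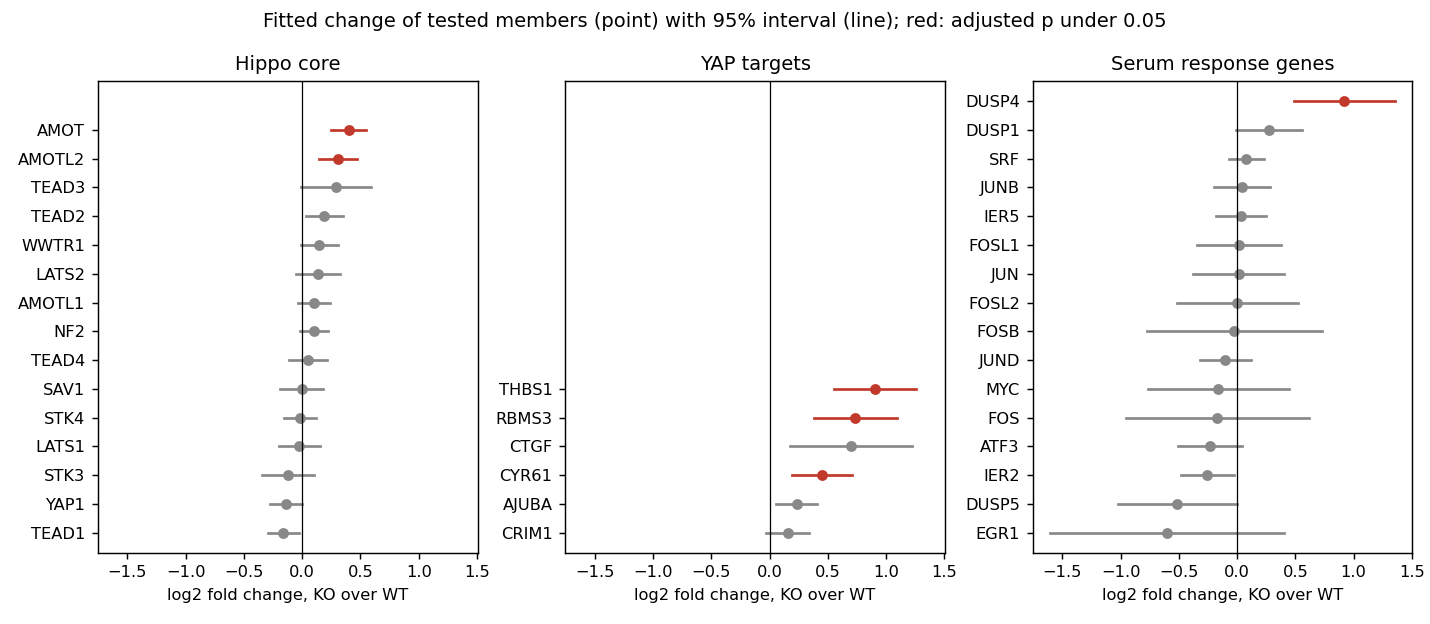
Log2 fold change of KO over WT for the 37 tested members, in 3 panels by group; points are fitted values, lines their 95% intervals, and red marks an adjusted p under 0.05. The 6 red points all lie above 0, with THBS1 (0.90) and DUSP4 (0.92) farthest from it, and the serum response panel is centred near 0.

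In the Hippo core the angiomotin genes AMOT and AMOTL2 rose, and the other 13 genes missed the threshold. Of 15 genes, all tested, 2 were higher and 0 lower (13.3%, against 6.56% of all genes), and the median log2 fold change was 0.10. Before adjustment 3 genes were higher and 1 lower at p under 0.05, and with DESeq2 the calls were 1 higher and 0 lower. In 9 of the 15 both KO libraries lay above both WT libraries, an order that 23.5% of all tested genes showed. In 2 of the 15 both lay below, against 21.8% of all tested genes. The order can go with a small change: TEAD4, among the 9, had a fitted log2 value of 0.05 and was not called.

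AMOT (chromosome X, 112774877 to 112840831, GRCh38), which encodes angiomotin, a junction scaffold that binds YAP1, had 91.1 and 86.5 CPM in the KO libraries and 70.4 and 64.4 CPM in the WT libraries. Both KO libraries lay above both WT libraries. AMOT rose 1.32-fold, by 0.40 ± 0.07 on the log2 scale (adjusted p = 0.000117), and it passed the threshold with DESeq2 (adjusted p = 0.00109) and without any one of the 4 libraries, where the largest adjusted p was 0.0308. AMOTL2 (chromosome 3, 134355345 to 134375417) encodes an angiomotin-like scaffold and is itself a known target of YAP1. It had 65.5 and 78.2 CPM in KO and 59.7 and 56.5 CPM in WT, again without overlap, and its log2 fold change was 0.31 ± 0.08 (adjusted p = 0.0111). That call rested on KO replicate 2 and WT replicate 2, without which the adjusted p was 0.423 and 0.185, and DESeq2 gave 0.119. The remaining family member AMOTL1 had 114 and 104 CPM in KO and 102 and 101 CPM in WT, and its fitted log2 value was 0.10 ± 0.07 (adjusted p = 0.529).

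The coactivators themselves missed the threshold. YAP1 had 93.8 and 92.3 CPM in the KO libraries and 104 and 101 CPM in the WT libraries, with both KO libraries below both WT libraries. The fitted log2 fold change was -0.14 ± 0.07, with a 95% interval of -0.28 to 0.00 (adjusted p = 0.303). WWTR1 had 66.9 and 69.3 CPM in KO and 57.6 and 65.3 CPM in WT, which gave 0.15 ± 0.08 on the log2 scale with an interval of -0.01 to 0.30 (adjusted p = 0.354). The fitted signs of the paralogs were thus opposite, but neither value passed the threshold and their difference was not tested.

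Of the TEAD factors, which carry YAP1 and TAZ to DNA, TEAD1 had 121 and 132 CPM in KO and 140.2 and 142 CPM in WT, with both KO libraries below both WT libraries. The fitted value was -0.16 ± 0.07 on the log2 scale (adjusted p = 0.160), and TEAD1 was called lower when the date was a block (blocked adjusted p = 0.0485). TEAD2 (0.19 ± 0.08, adjusted p = 0.185), TEAD3 (0.29 ± 0.15, adjusted p = 0.327) and TEAD4 (0.05 ± 0.08, adjusted p = 0.860) had fitted values above 0 and were not called.

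The kinases and their partners were not called. LATS2, the LATS kinase gene that YAP1 is known to induce, had 32.5 and 36.4 CPM in KO and 32.0 and 30.9 CPM in WT (0.13 ± 0.09, adjusted p = 0.534). LATS1 (-0.03 ± 0.09), the upstream kinase genes STK3 (-0.12 ± 0.11) and STK4 (-0.02 ± 0.07) and their scaffold SAV1 (-0.01 ± 0.09) all overlapped between the groups. NF2, the gene of merlin, an upstream activator of LATS kinases, had 199.8 and 207 CPM in KO and 188 and 192 CPM in WT (0.10 ± 0.06, adjusted p = 0.452). For these 6 kinase, scaffold and merlin genes the 95% intervals lay between -0.35 and 0.32 on the log2 scale.

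Among the YAP targets THBS1, RBMS3 and CYR61 rose. Of 7 genes 6 were tested, and 3 were higher and 0 lower, 50% of those tested, against 6.56% of all genes. All 6 fitted values were above 0, against 50.4% of all genes, and their median log2 fold change was 0.58. All tested members except CRIM1 had an unadjusted p under 0.05 (5 higher, 0 lower), and DESeq2 called 1 gene, THBS1. Earlier results of these data were known when the group was drawn up, so its direction is a description. In 5 of the 6 both KO libraries lay above both WT libraries, an order that 23.5% of all tested genes showed. In 5 of the 6 WT replicate 2 was the lowest of the 4 libraries, and the share of all genes with that order was not taken. In all 6 the ratio of KO to WT was larger between the libraries dated 9 May than between those dated 6 May. The log2 ratios of 6 and 9 May were close in CRIM1 (0.13 and 0.18) and RBMS3 (0.71 and 0.76). They were far apart in CTGF (-0.05 and 1.38). The share of all genes with the larger ratio on 9 May was not taken.

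THBS1 (chromosome 15, 39581079 to 39599466), the gene of the matrix protein thrombospondin-1, whose window with a TEAD motif is printed above, had 9.79 and 12.7 CPM in the KO libraries and 7.26 and 4.86 CPM in the WT libraries. The groups did not overlap, and KO replicate 2 was highest. THBS1 rose by 0.90 ± 0.17 on the log2 scale (adjusted p = 0.000301), and the call held with DESeq2 (adjusted p = 0.0262) and without any one library, with a log2 fold change between 0.63 and 1.21. The log2 ratio was 0.43 between the libraries of 6 May and 1.39 between those of 9 May. THBS1 overlaps FSIP1, which had 17 and 16 counts in KO and 18 and 19 counts in WT.

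RBMS3 (chromosome 3, 29281071 to 30010395), which encodes an RNA-binding protein, had 8.70 and 7.59 CPM in KO and 5.34 and 4.50 CPM in WT, without overlap. Its log2 fold change was 0.74 ± 0.18 (adjusted p = 0.00402), and the ratios at the 2 dates were close, 0.71 and 0.76 on the log2 scale. The call was lost without KO replicate 1 (adjusted p = 0.0639), without WT replicate 2 (0.108) and with DESeq2 (0.158). Its antisense genes RBMS3-AS1 and RBMS3-AS2 had 0 counts in all 4 libraries.

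CYR61 (chromosome 1, 85580761 to 85583950) and CTGF (chromosome 6, 131948176 to 131951372) encode secreted matricellular proteins and are the most widely used readouts of YAP1 and TAZ. CYR61 had 17.9 and 17.5 CPM in KO and 14.5 and 11.5 CPM in WT, with no overlap and a log2 fold change of 0.45 ± 0.13 (adjusted p = 0.0184). That call was lost without WT replicate 2 (adjusted p = 0.460), without KO replicate 1 (0.0599) and with DESeq2 (0.300). CTGF had 4.49 and 8.09 CPM in KO and 4.66 and 3.12 CPM in WT, so the groups overlapped and KO replicate 2 stood well above the other libraries. Its log2 fold change of 0.70 ± 0.25 missed the threshold (adjusted p = 0.122), with a 95% interval of 0.18 to 1.23. It was called higher without KO replicate 1 (log2 fold change 1.07, adjusted p = 0.000267), without WT replicate 1 (1.003, adjusted p = 0.00322) and with no filter on low counts (adjusted p = 0.0141). Without KO replicate 2 the value was 0.22.

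AJUBA, whose LIM-domain protein restrains LATS kinases, had 65.2 and 62.2 CPM in KO and 61.0 and 47.8 CPM in WT. WT replicate 2 was the low library, and the log2 fold change was 0.23 ± 0.09 (adjusted p = 0.130). AJUBA was called higher with the date as a block (blocked adjusted p = 0.0299) and not with DESeq2 (adjusted p = 0.616). Its value depended on WT replicate 2: the log2 fold change was 0.07 without that library and 0.41 without WT replicate 1. CRIM1, a transmembrane BMP-binding protein gene, gave 0.16 ± 0.09 (adjusted p = 0.422). ANKRD1, a cardiac-enriched ankyrin repeat protein gene with 2 TEAD motifs in its window, had 3 and 2 counts in KO and 3 and 5 counts in WT and could not be tested.

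**Figure D3:**
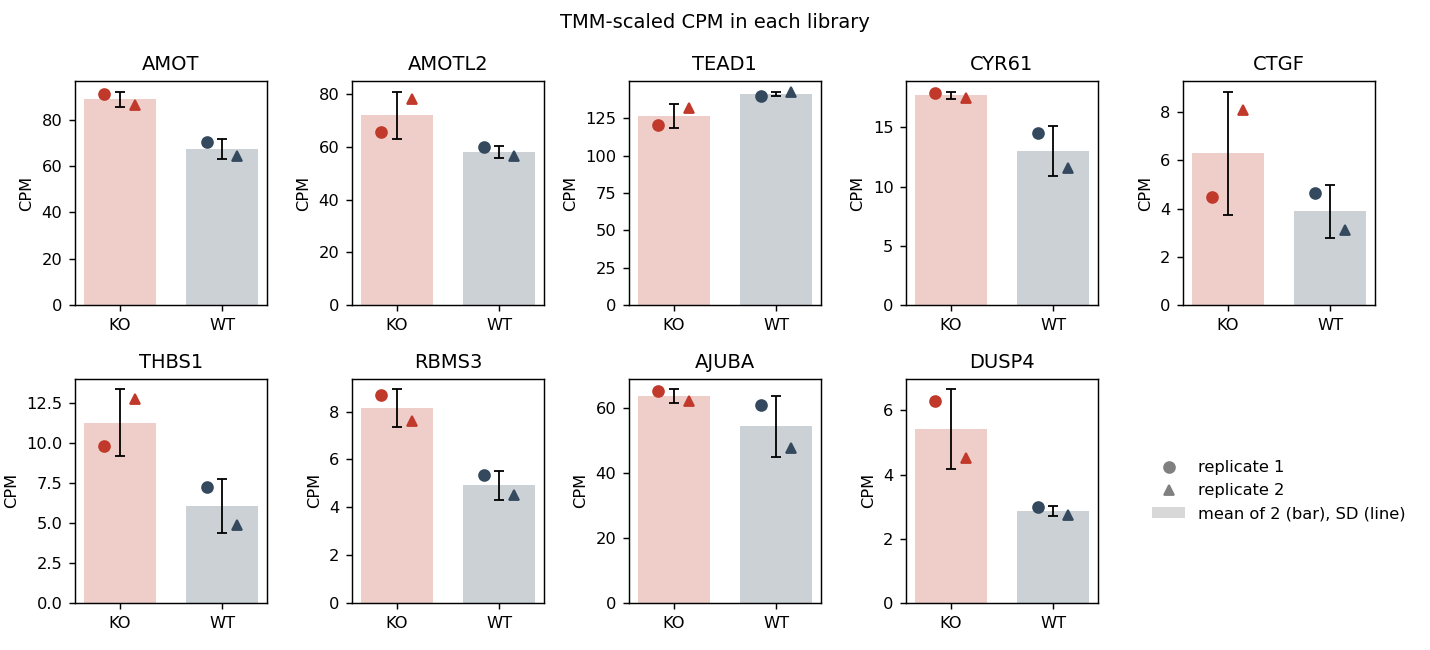
TMM-scaled CPM in each library for the 6 members called and for TEAD1, CTGF and AJUBA, with KO left of WT; circles are replicate 1, triangles replicate 2, bars the mean of 2 libraries and lines the SD. CTGF is the panel in which the groups overlap, with KO replicate 2 at 8.09 CPM and KO replicate 1 at 4.49 CPM.

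Of the serum response genes DUSP4 rose, and FOS, FOSB and the EGR genes were barely counted in either group. Of 20 genes 16 were tested, and 1 was higher and 0 lower, 6.25% of those tested, against 6.56% of all genes. The median log2 fold change was -0.01. Without adjustment 1 was higher and 2 were lower at p under 0.05, and 0 were called either way by DESeq2. In 7 of the 20 every library stood at or below 1.5 CPM: FOS, FOSB, EGR1, EGR2, EGR3, IER3 and DUSP6. Both KO libraries lay above both WT libraries in 2 of the 16 tested genes and below them in 3, against 23.5% and 21.8% of all tested genes.

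**Figure D4:**
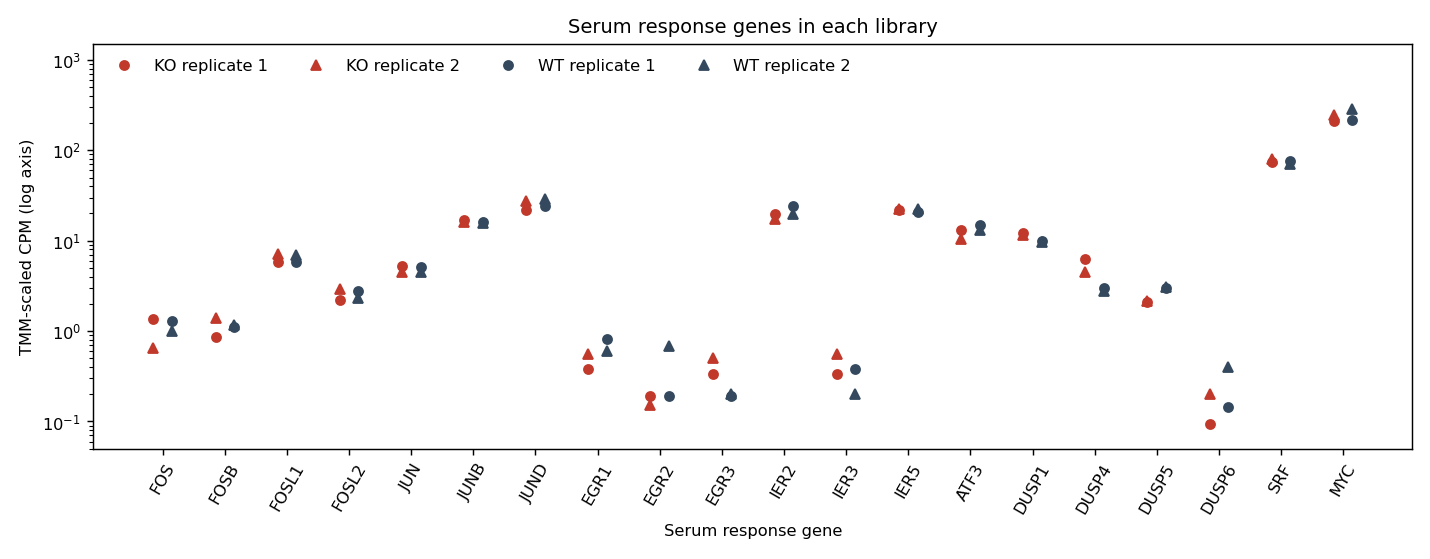
TMM-scaled CPM on a log axis for the 20 serum response genes, with KO in red left of WT in dark blue and replicates as circles and triangles. FOS, FOSB and the EGR genes lie near or below 1 CPM in every library, and both KO points of DUSP4 (6.29 and 4.52 CPM) lie above both WT points (2.98 and 2.75 CPM).

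The AP-1 genes gave fitted values near 0. FOS, the prototype immediate early gene, had 29 and 13 counts in KO and 27 and 25 counts in WT, which is 1.37 and 0.654 CPM against 1.30 and 1.01 CPM (log2 fold change -0.17 ± 0.39, adjusted p = 0.908). Its 95% interval ran from -0.95 to 0.61 on the log2 scale. JUN had 5.20 and 4.52 CPM in KO and 5.14 and 4.54 CPM in WT (0.01 ± 0.20, adjusted p = 0.987), with matching order by date in both groups. JUNB (0.04 ± 0.12), JUND (-0.10 ± 0.11), FOSB (-0.02 ± 0.37), FOSL1 (0.02 ± 0.18) and FOSL2 (0.00 ± 0.26) overlapped between the groups and were not called. JUNB overlaps the gene HOOK2, and how the counting treated strand is not given in the sources used here.

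EGR1, a zinc finger factor gene with 2 CArG boxes in the window printed above, had 8 and 11 counts in KO and 17 and 15 counts in WT, or 0.378 and 0.553 CPM against 0.817 and 0.607 CPM. The KO libraries lay below the WT libraries, but the log2 fold change of -0.60 ± 0.50 missed the threshold (adjusted p = 0.633) with an interval of -1.61 to 0.41. Its paralog EGR2 had 4 and 3 counts in KO and 4 and 17 counts in WT, and EGR3 had 7 and 10 counts in KO and 4 and 5 counts in WT, and neither could be tested. IER2, an immediate early nuclear protein gene, had 19.6 and 17.4 CPM in KO and 24.4 and 19.97 CPM in WT (-0.25 ± 0.11, adjusted p = 0.230). IER5 (0.03 ± 0.11) and the stress-induced factor gene ATF3 (-0.23 ± 0.14, adjusted p = 0.416) were not called, and IER3 had 7 and 11 counts in KO and 8 and 5 counts in WT.

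DUSP1, DUSP4, DUSP5 and DUSP6 encode phosphatases that switch MAP kinases off. DUSP4 (chromosome 8, 29333064 to 29350684), a nuclear phosphatase of ERK, had 6.29 and 4.52 CPM in KO and 2.98 and 2.75 CPM in WT, without overlap. At 0.92 ± 0.22 (adjusted p = 0.00300) it had the largest log2 fold change of the 37 tested members, and the call was lost without KO replicate 1 (log2 fold change 0.66, adjusted p = 0.149) and with DESeq2 (adjusted p = 0.176). DUSP5, another nuclear ERK phosphatase, had 2.08 and 2.16 CPM in KO and 2.98 and 3.08 CPM in WT, with both KO libraries below both WT libraries, but -0.51 ± 0.25 missed the threshold (adjusted p = 0.294). DUSP1 had 12.1 and 11.6 CPM in KO and 10.05 and 9.56 CPM in WT (0.27 ± 0.14, adjusted p = 0.324). DUSP6, the cytoplasmic ERK phosphatase, had 2 and 4 counts in KO and 3 and 10 counts in WT and could not be tested.

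SRF, the factor that binds the CArG box, had 75.1 and 80.7 CPM in KO and 76.5 and 71.0 CPM in WT (0.08 ± 0.07, adjusted p = 0.691). MYC, a transcription factor gene induced by serum, had 210.03 and 244 CPM in KO and 219 and 288 CPM in WT, and in both groups the library of 9 May was the higher one. Its log2 fold change was -0.16 ± 0.19 (adjusted p = 0.802; blocked adjusted p = 0.0503). MYC was called lower without WT replicate 1 (-0.35, adjusted p = 0.00211), and without WT replicate 2 its sign turned (0.06).

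Handling and stress can move immediate early genes, so 9 heat shock genes were set beside them. They summed to 6937 and 5760 CPM in the KO libraries and 7510 and 5903 CPM in the WT libraries, higher on 6 May in both groups. Of the 7 tested 1 was higher and 0 lower, 14.3% of those tested, against 6.56% of all genes. The gene called was HSPB1 (0.24 ± 0.06, adjusted p = 0.00559), with 0.20 to 0.29 over the left-out libraries and the call lost without WT replicate 2. HSPA1A and HSPA1B had 0 counts throughout, which alone does not show that their RNA was absent. With the date as a block HSP90AA1 was lower (blocked adjusted p = 2.10e-05). Their part in the serum response values was not tested.

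The wider pathways were read from 7 further lists of 120 genes in all. Of 38 Hippo upstream and accessory genes 36 were tested, and 3 were higher and 2 lower, 13.9% of those tested, against 6.56% of all genes. When the date was a block 5 were higher and 2 lower, where 9.55% of all genes were called. Of the 3 higher, SCRIB, a polarity scaffold gene, had 159.8 and 169 CPM in KO and 133 and 132 CPM in WT (0.31 ± 0.06, adjusted p = 0.000476), and it passed under every left-out library. LLGL1, which acts with SCRIB in basolateral polarity, had 121 and 131 CPM in KO and 98.9 and 107 CPM in WT (0.29 ± 0.07, adjusted p = 0.00258), a call lost without WT replicate 1 (adjusted p = 0.182) and without KO replicate 2 (0.0529).

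VGLL3, which encodes a cofactor of TEAD factors, had 9.36 and 11.2 CPM in KO and 15.6 and 16.9 CPM in WT (-0.66 ± 0.13, adjusted p = 0.000404). It fell with DESeq2 as well (adjusted p = 0.0263). FRMD6, the gene of the FERM protein Willin, fell to 16.2 and 15.3 CPM in KO, against 22.2 and 21.5 CPM in WT (-0.47 ± 0.11, adjusted p = 0.00381), a call lost with DESeq2 (adjusted p = 0.0897). In all 4 of these genes the KO and WT libraries did not overlap. The genes were picked by calls on the same libraries, so this order adds no separate support. Of all tested genes 23.5% had both KO libraries above both WT libraries and 21.8% had both below.

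In a second list of 15 YAP targets 13 were tested, and TGFB2 rose. That is 7.69% of those tested, against 6.56% of all genes, and the difference from the first group was not tested. The list had 1 higher and 0 lower, 3 higher and 1 lower before adjustment at p under 0.05, and 0 called by DESeq2, and the median log2 fold change was 0.02. The gene called was TGFB2, a growth factor gene, with 7.43 and 5.93 CPM in KO and 4.04 and 3.93 CPM in WT (0.75 ± 0.19, adjusted p = 0.00765), a call lost without KO replicate 1 (0.161), without WT replicate 2 (0.0671) and with DESeq2 (0.244). When the date was a block MYOF (-0.97, blocked adjusted p = 0.000344) and the tissue factor gene F3 (-0.56, blocked adjusted p = 0.0333) were lower and ARHGEF17 (0.28, blocked adjusted p = 0.0293) was higher. These 3 genes were named with their values in view.

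**Figure D5:**
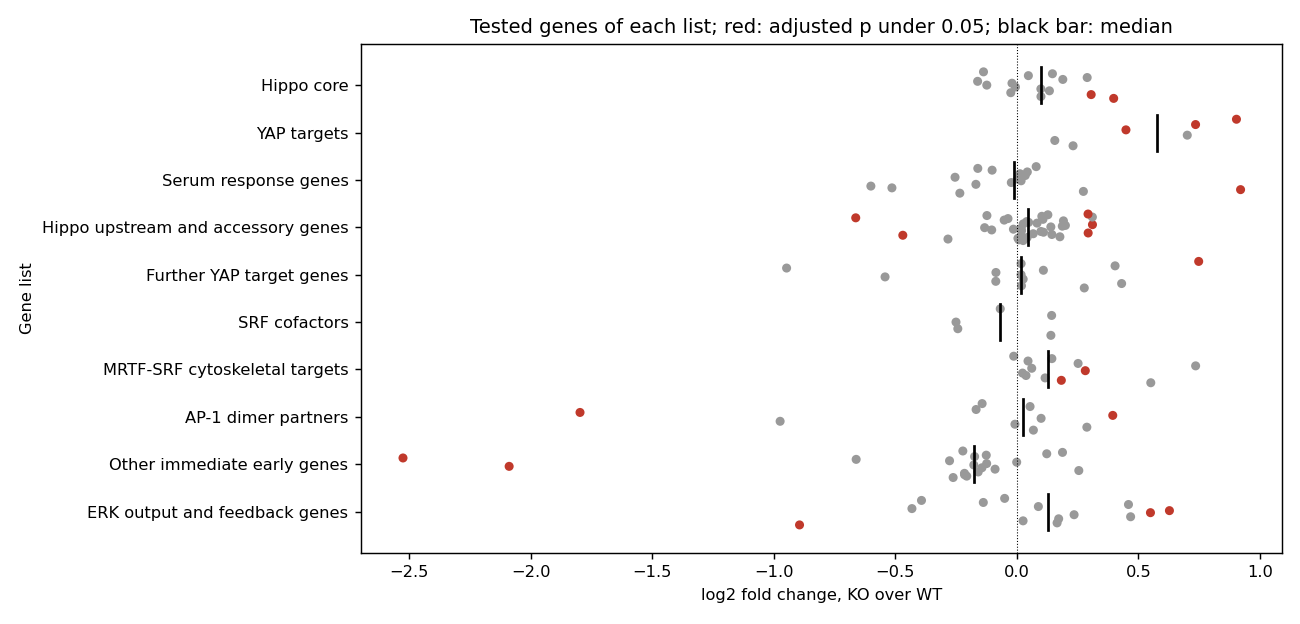
Log2 fold change of KO over WT for the tested genes of the 3 member groups and of the 7 further lists; each point is a gene, red marks an adjusted p under 0.05, and black bars are medians. The YAP target members have the highest median (0.58), and the red points farthest from 0 are RHOB, KLF4 and MAF on the lower side.

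Around SRF, 0 of 5 cofactor genes (ELK1, ELK3, ELK4, MKL1 and MKL2) were called in either direction by edgeR or DESeq2, with 1 higher and 1 lower before adjustment at p under 0.05. Of 14 cytoskeletal targets of SRF and its actin-regulated cofactors 12 were tested, and 2 were higher and 0 lower. These calls were 16.7% of those tested, against 6.56% of all genes. Before adjustment 5 were higher and 0 lower, and DESeq2 gave the same 2 calls. Filamin A gene FLNA had 2948 and 3011 CPM in KO and 2605 and 2297 CPM in WT (0.28 ± 0.05, adjusted p = 0.000241), and beta-actin gene ACTB had 3743 and 3932 CPM in KO and 3512 and 3250 CPM in WT (0.18 ± 0.05, adjusted p = 0.0186). Without WT replicate 2 both calls were lost (adjusted p = 0.223 for FLNA and 0.562 for ACTB), and the ACTB call was also lost without KO replicate 2 (0.0706) or WT replicate 1 (0.0804). TPM1 (blocked adjusted p = 0.00407) and VCL (blocked adjusted p = 0.0397), named with their values in view, were higher too when the date was a block.

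Of 13 dimer partners and relatives of AP-1 10 were tested, 1 was higher and 1 lower. These calls were 20% of those tested, against 6.56% of all genes. MAF, a large basic leucine zipper factor gene, fell to 1.84 and 3.87 CPM in KO, against 9.18 and 10.5 CPM in WT (-1.80 ± 0.22, adjusted p = 2.87e-07). JDP2, which encodes a repressor that dimerises with JUN, had 26.2 and 22.2 CPM in KO and 21.2 and 15.8 CPM in WT (0.39 ± 0.12, adjusted p = 0.0398). The JDP2 call was lost without KO replicate 1 (0.259), without WT replicate 2 (0.656) and with DESeq2 (0.418), and the MAF call held in all of these.

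Among 22 other immediate early genes 20 were tested, and 0 were higher and 2 lower, 10% of those tested, against 6.56% of all genes. Before adjustment 0 were higher and 3 lower at p under 0.05, and DESeq2 gave 0 higher and 2 lower. The fitted value was below 0 in 17 of the 20, with a median of -0.18. Over all genes 50.4% were above 0, with a median of 0.00, and the difference was not tested. RHOB, a growth factor-inducible GTPase gene, fell to 0.426 and 0.855 CPM in KO, against 2.98 and 4.33 CPM in WT (-2.53 ± 0.33, adjusted p = 9.37e-08). KLF4 fell to 2.18 and 1.91 CPM in KO, against 7.45 and 9.92 CPM in WT (-2.09 ± 0.21, adjusted p = 8.66e-11). Both calls held with DESeq2 and under every left-out library. The falls were larger than the fitted change of any of the 16 serum response members tested. RHOB and KLF4 were named because they were called in these same libraries, so that order adds no separate support. RHOB was near the floor in KO, at 0.855 CPM or below.

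Of 15 output and feedback genes of the ERK kinases 14 were tested, 2 were higher and 1 lower. These calls were 21.4% of those tested, against 6.56% of all genes. EPHA4, an ephrin receptor gene, had 111 and 126 CPM in KO and 83.2 and 78.6 CPM in WT (0.55 ± 0.07, adjusted p = 7.56e-08). ETV1, an ETS factor gene, had 6.62 and 7.59 CPM in KO and 3.99 and 5.14 CPM in WT (0.63 ± 0.19, adjusted p = 0.0281), a call lost without WT replicate 1 (0.369), without KO replicate 2 (0.289) and with DESeq2 (0.428). The cyclin gene CCND1 fell to 1.56 and 2.82 CPM in KO, against 3.12 and 4.90 CPM in WT (-0.89 ± 0.26, adjusted p = 0.0301), a call lost without KO replicate 1 (0.337), without WT replicate 2 (0.555) and with DESeq2 (0.514). When the date was a block EPHA2 was higher (blocked adjusted p = 0.0182) and SPRED2 lower (blocked adjusted p = 0.0407), and these names too were picked from the values.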

How the data were processed

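The 4 total RNA libraries were used, and the small RNA libraries of the series were not used here. Per the labels' protocols they are stranded total RNA libraries. The authors deposited raw counts, a whole number per gene symbol and library, without normalisation. Per the submitters' processing notes the tools were STAR, featureCounts, Subread, SAMtools, cutadapt and FastQC, on hg38, with no roles stated. Annotation, strand setting and versions were not found in the sources used here.

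The fit used edgeR 4.0.16 under R 4.3.3: filterByExpr (minimum count 10), TMM, the robust quasi-likelihood F test of KO against WT, and Benjamini-Hochberg adjustment over all 16233 genes, threshold 0.05. SE was the size of the log2 fold change divided by the square root of F, and 95% intervals used the fit's degrees of freedom. DESeq2 was version 1.42.0. The test was tried on simulated data with 200 changed genes. Totals were 21416336 and 20065041 counts in KO and 20728819 and 24415272 in WT; intervals cover only what the fit sees. Nothing says that the replicates came from separate cultures beyond the design text, which calls them biological, so p-values may measure technical spread in part. Replicates differed beyond counting noise (chi-square per degree of freedom 4.37 in KO and 3.62 in WT).

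The dates in the labels pair the libraries, so the date was tried as a replicate block; the deviations of same-date libraries correlated at 0.08. The members and lists were chosen with earlier results of these data known. CYR61 and DUSP4, which had no window in the RefSeq table, have no printed promoter. Full values were given for members called in the fit with or without the block, for 16 members whatever their p, and for up to 2 called genes each way of each list. Positions and promoters are RefSeq's, GRCh38.p14. The alternatives were other size factors, total-count scaling, DESeq2, no or a stricter filter, no robust estimation, the block, and leaving out each library.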

Additional observations from a re-analysis of the deposited data

How the results depend on the processing

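Of all genes tested, 497 were higher and 568 lower. DESeq2 called 234 higher and 279 lower, and with the date as a replicate block 767 were higher and 784 lower. Scaling by total count gave 374 higher and 644 lower, so that 36.7% of the calls were higher, against 46.7% with TMM. Leaving out a library gave 240 to 684 higher and 340 to 705 lower. In the Hippo core DESeq2 called 1 higher, the block called 1 lower, and leaving out a library gave 1 to 2 higher and 0 lower. Of the YAP targets DESeq2 called 1 higher, and leaving out a library gave 1 to 5 higher and 0 lower. Of the serum response genes DESeq2 called 0 higher, and leaving out a library gave 0 to 1 higher and 0 to 1 lower. The count of higher YAP targets without WT replicate 2 was 1, and without WT replicate 1 it was 5. Among the members given in full, signs turned, with no call on the turned side, in FOS (-0.81 to 0.26 over the left-out libraries), JUN (-0.014 with total-count scaling and -0.092 to 0.11 over the left-out libraries) and MYC (0.056 without WT replicate 2; range -0.35 to 0.056). Among the other tested members the range over the left-out libraries also spanned 0 in LATS1, STK4, SAV1, FOSB, FOSL1, FOSL2, JUND and IER5. The cause was not tested. The block changed no call among the members other than those of TEAD1 and AJUBA. ANKRD1, EGR2, EGR3, IER3 and DUSP6 had too few counts to be tested.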
